A study of Mus musculus with 4 samples.

Results

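The Frizzled family holds the 10 receptor genes Fzd1 to Fzd10, which were taken from the deposited expression table by gene symbol. Each of the 10 had exactly 1 row with 1 symbol, out of 27542 rows in the table. The family was chosen by name and on the measured fall of Fzd7, that is, on its FPKM and q in the same contrast. The difference of Fzd7 between the conditions is therefore given as a description and supports nothing else. RNA sequencing had been done on mouse TBV2 cells, an embryonic stem (ES) cell line, grown in serum with LIF. The knockdown (KD) condition was 3 clones in which the ultraconserved long noncoding RNA T-UCstem1, also labelled uc.170, was knocked down, and the authors combined them into 1 value per gene. The control (NT) was 1 library of cells labelled N.T. control. The level of T-UCstem1 itself was not analysed here. The series text adds feeder cells and high density as culture conditions, and the labels name no other allele or agent. Levels are deposited FPKM, which count fragments per kilobase of a transcript and are scaled by the mapped fragments of a library. With 1 value per condition there is no SD, standard error or n beside any level, and the depth of the libraries is not given. The spread between clones and between control cultures is therefore unknown, and an order of levels cannot be set against it.

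Frizzled proteins are receptors of the cell surface that cross the membrane several times and bind lipid-modified Wnt ligands through a cysteine-rich domain outside the cell. With the co-receptors Lrp5 and Lrp6 they recruit Dishevelled, which stops the destruction of beta-catenin. With Ror, Ryk or planar polarity proteins they signal without beta-catenin. Wnt signalling sustains self-renewal of mouse ES cells, and FZD7 is a receptor required for the undifferentiated state in human ES cells.

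All 10 coding sequences hold the codons of the short motif just after the last membrane segment, known as KTXXXW, through which Frizzled binds Dishevelled. It was searched in frame, in the longest complete coding sequence of each gene in GENCODE M21, as a lysine codon (AAG or AAA), a threonine codon (ACN), any 3 codons and TGG, and occurred 1 time per gene. Of these stretches, 7 are shown 5′ to 3′ as examples, with the codons for lysine, threonine and tryptophan in capitals. The bases shown before the motif are the same in Fzd3 and Fzd6, and the same in Fzd1, Fzd2 and Fzd5. Whether such short stretches separate the subfamilies was not tested.
Fzd7: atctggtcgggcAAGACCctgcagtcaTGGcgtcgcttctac
Fzd2: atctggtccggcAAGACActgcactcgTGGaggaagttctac
Fzd1: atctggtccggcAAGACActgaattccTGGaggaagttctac
Fzd5: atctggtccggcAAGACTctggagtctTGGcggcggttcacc
Fzd10: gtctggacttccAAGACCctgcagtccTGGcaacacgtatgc
Fzd3: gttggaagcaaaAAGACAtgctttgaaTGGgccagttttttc
Fzd6: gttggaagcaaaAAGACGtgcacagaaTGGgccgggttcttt
In Fzd1, Fzd2 and Fzd7 the coding sequence ends 54 bases after the motif, stop codon included. It goes on for 168 bases in Fzd5 and 153 bases in Fzd10. In Fzd3 and Fzd6, which have the longest tails, 480 and 621 bases follow.

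Over the whole coding sequence, Fzd7 was nearest to Fzd2 and Fzd1. In aligned coding bases it was 78.6% identical to Fzd2 and 78.0% to Fzd1, while Fzd1 and Fzd2 were 81.5% identical. Fzd5 was 76.3% identical to Fzd8, and Fzd9 was 70.8% identical to Fzd10. The longest run shared by Fzd7 and Fzd1 was 47 bases, and the longest shared by Fzd7 and Fzd2 was 38 bases. They are shown because a read that lies wholly inside such a run matches both genes.
Fzd7 and Fzd1: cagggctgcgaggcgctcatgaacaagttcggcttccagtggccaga
Fzd7 and Fzd2: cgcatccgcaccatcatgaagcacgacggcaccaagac
The longest run that Fzd5 and Fzd7 share was 26 bases.

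Fzd7 was the family member that differed most between the conditions. It was at 14.4 FPKM in KD clones and 37.5 FPKM in NT cells, a log2 fold of -1.32 on the scale log2((KD FPKM + 1)/(NT FPKM + 1)). The KD level was 0.384 of the NT level. In the authors' deposited table Fzd7 has a Cuffdiff p of 5e-05, the smallest in the table and shared by 95 tested rows, and a q of 0.00815. It lies on chromosome 1, on the plus strand (mm9 chr1:59538948-59546519). GENCODE gives it 1 exon. Its row in the table spans 7572 bases, against 4809 bases for the RefSeq gene, so transcribed sequence beyond the RefSeq gene may enter its FPKM.

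Fzd5 was the most abundant Frizzled gene in both conditions. It was at 32.5 FPKM in KD clones and 43.6 FPKM in NT cells (chr1:64777046-64784324, minus strand), and the log2 fold was -0.41. The authors did not mark it, and the authors' deposited table lists a q of 0.627. Fzd5 is an essential receptor of the mouse yolk sac and placental vessels. Its closest relative Fzd8 was among the lowest members, at 0.446 FPKM in KD clones and 0.411 FPKM in NT cells, and was not tested by the authors.

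The order of the leading genes was the same in both conditions, with Fzd5 at the top, then Fzd7 and then Fzd10, but the gap between Fzd5 and Fzd7 differed. Fzd7 stood at 0.444 of the Fzd5 level in the KD and at 0.860 of it in NT cells. Fzd10 (chr5:129106981-129109968, plus strand) was at 7.73 FPKM in KD clones and 5.78 FPKM in NT cells, with a log2 fold of 0.37, and the authors' deposited table lists a q of 0.994. Fzd9, its relative on the same chromosome and a receptor known from neural and bone tissue, was at 1.50 FPKM in KD clones and 1.10 FPKM in NT cells. In both, the KD level was the higher one, and neither was marked.

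The closest relatives of Fzd7 were low in both conditions. Fzd2 was at 1.40 FPKM in KD clones and 1.55 FPKM in NT cells, a log2 fold of -0.085. Fzd1 was at 0.504 FPKM in KD clones and 0.267 FPKM in NT cells, a log2 fold of 0.25, and was not tested by the authors. Within this subfamily, only Fzd7 was above 2 FPKM in either condition. Whether its fold differs from those of Fzd1 and Fzd2 could not be tested with 1 value per condition.

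Fzd3 and Fzd6, the receptors best known for planar cell polarity and for the guidance of axons and hair follicles, were low in both conditions. Fzd3 was at 2.84 FPKM in KD clones and 2.58 FPKM in NT cells, with a log2 fold of 0.10. Fzd6 was at 2.05 FPKM in KD clones and 1.31 FPKM in NT cells, with a log2 fold of 0.40. That is the highest of the family at a pseudocount of 1, but without a pseudocount the KD to NT ratio was 1.89 for Fzd1 and 1.56 for Fzd6, and at a pseudocount of 0.1 the log2 fold was 0.72 for Fzd1 and 0.60 for Fzd6. Fzd4, the receptor of Norrin in retinal vessels, was at 0.850 FPKM in KD clones and 0.620 FPKM in NT cells. Its log2 fold was 0.19. None of these was marked, and the q values of the 7 unmarked tested members in the authors' deposited table ran from 0.627 to 0.999.

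**Figure D1:**
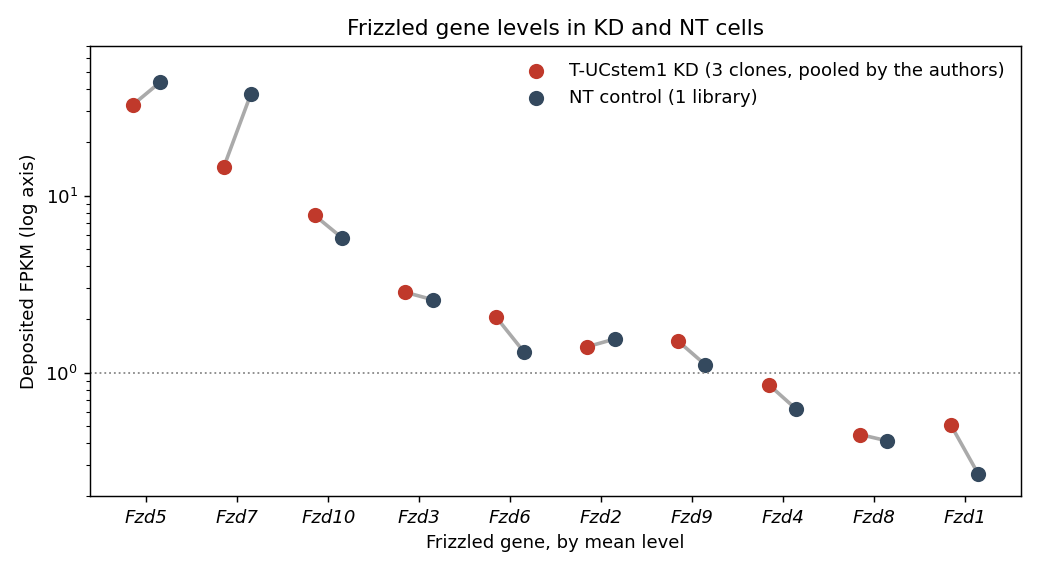
Deposited FPKM of the 10 Frizzled genes on a log axis, with the KD value (red, 3 clones pooled by the authors) left of the NT value (dark, 1 library) and a dotted line at 1 FPKM. Fzd7 drops to 14.4 FPKM in the KD against 37.5 FPKM in NT cells, while 7 of the 10 members lie higher in the KD.

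Across the family, 3 members (Fzd2, Fzd5 and Fzd7) had a log2 fold below 0 and 7 had one above 0. The authors tested 8 of the 10 and marked 1, Fzd7, as lower. Of all 15477 tested rows, 0.187% were marked as lower and 0.963% as higher. With the p-values of the authors' deposited table adjusted again over 13455 tested rows of at least 1 FPKM, the counts of members were the same and the background was 0.223% lower and 1.2% higher. Over 13025 tested rows with exactly 1 symbol they were again the same, and the background was 0.2% lower and 1.23% higher. Because the fall of Fzd7 was used in choosing the family, nothing is read from the count against that background. No member was marked as higher by Cuffdiff, and 0 members were higher and 1, Fzd7, was lower at an unadjusted p under 0.05 in the authors' deposited table. Of all tested rows, 8.88% had such a p. The median log2 fold of all 10 members was 0.15 at a pseudocount of 1 and 0.27 at a pseudocount of 0.1, and that of the 7 members with at least 1 FPKM in either condition was 0.10 at a pseudocount of 1. Over all tested rows the median was 0.0069.

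Levels in FPKM are per length, so they can be added into a Frizzled transcript pool. The pool was 64.3 FPKM in KD clones and 94.8 FPKM in NT cells, a ratio of 0.678. Fzd7 made up 22.4% of the pool in the KD and 39.6% in NT cells. Fzd5 made up 50.6% in the KD and 46.0% in NT cells, and Fzd10 made up 12.04% in the KD and 6.10% in NT cells. Both genes on chromosome 1 together were 73.0% of the pool in the KD and 85.6% in NT cells.

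The difference in Fzd7 alone, -23.1 FPKM, was 75.7% of the difference in the pool. Fzd5 was lower by 11.1 FPKM in the KD, given as -11.1 FPKM for KD minus NT. Without Fzd7 the pool was 49.8 FPKM in KD clones and 57.2 FPKM in NT cells. Without Fzd5 and Fzd7 the other 8 members added up to 17.3 FPKM in KD clones and 13.6 FPKM in NT cells. In bulk RNA, fewer cells that express a gene and less RNA per cell cannot be told apart.

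**Figure D2:**
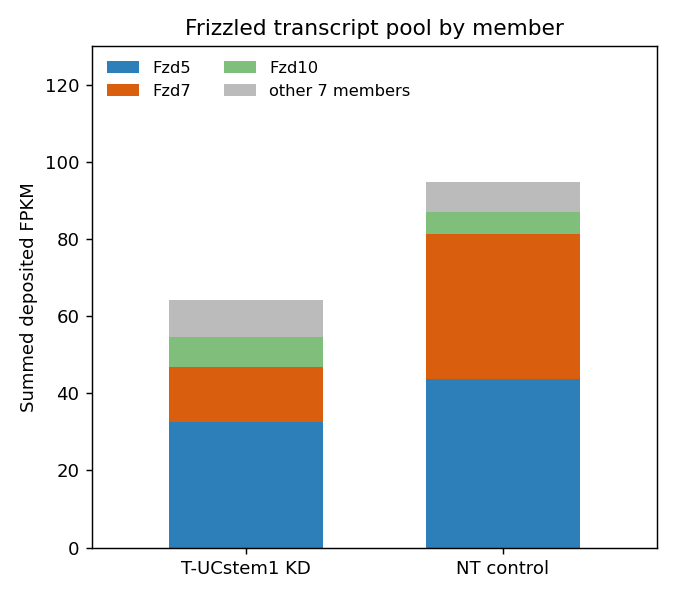
Summed deposited FPKM of the Frizzled genes in KD and NT cells, stacked by member, with the 7 least abundant members in grey. The KD column ends at 64.3 FPKM and the NT column at 94.8 FPKM, and the Fzd7 segment is 22.4% of the KD column and 39.6% of the NT column.

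Most rows around Fzd7 on chromosome 1 also had lower KD values, by less than Fzd7 with 1 exception. Within 1 Mb on either side, 20 rows had at least 1 FPKM in either condition, and 18 of them had a log2 fold below 0. Of the 18 rows with a symbol, 16 were below 0. The median of the 20 neighbours was -0.38, with quartiles of -0.54 and -0.19. Fzd7 lay 0.94 below that median, a difference of -0.94. The authors marked 1 of the 20 as lower, where 0.187% of all tested rows were so marked. It was Abi2, an actin regulator of the WAVE complex, at 9.37 FPKM in KD clones and 17.7 FPKM in NT cells. For Abi2 the log2 fold was -0.85, and the authors' deposited table lists a q of 0.0410.

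The rows next to Fzd7 on either side were Cdk15, a cyclin-dependent kinase family gene, and Gm973. Cdk15 was at 0.669 FPKM in KD clones and 1.30 FPKM in NT cells, and Gm973 at 1.27 FPKM in KD clones and 2.48 FPKM in NT cells. Their log2 folds were -0.46 and -0.62. Fam117b had a log2 fold of -0.65, at 8.61 FPKM in KD clones and 14.1 FPKM in NT cells. Ndufb3, a subunit of respiratory complex I, was at 140 FPKM in KD clones and 206 FPKM in NT cells.

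Nop58, a nucleolar protein, was 1 of the 2 neighbours above 0, at 258 FPKM in KD clones and 248 FPKM in NT cells. The other was Casp8, an initiator caspase, at 1.98 FPKM in KD clones and 1.55 FPKM in NT cells. Of the 20 neighbours 1 had a lower fold than Fzd7, a row without a symbol that the authors did not mark. The log2 folds of Fam126b, Cflar, Trak2, Stradb, Bmpr2, Carf, Wdr12, Nbeal1 and Cyp20a1 ran from -0.53 for Stradb to -0.12 for Trak2. Rows that overlap, such as Carf and Wdr12, carry 1 joint locus in the table, so their distances are approximate.

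Fzd5, 5.24 Mb further along the same chromosome, differed by about as much as its own neighbours. Against -0.41 for Fzd5 itself, the median of the 10 rows within 1 Mb was -0.48, and 9 of them had a log2 fold below 0. The row on one side, Ccnyl1, a cyclin Y-like gene, was at 13.9 FPKM in KD clones and 20.3 FPKM in NT cells. Plekhm3, on the other side, was at 4.08 FPKM in KD clones and 6.16 FPKM in NT cells. Creb1, a transcription factor of the cyclic AMP response, was at 12.9 FPKM in KD clones and 20.3 FPKM in NT cells, and Idh1, a cytosolic isocitrate dehydrogenase, at 32.6 FPKM in KD clones and 43.3 FPKM in NT cells. Relative to the median of its neighbours, Fzd5 was at 0.064, so it was not lower than they were.

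**Figure D3:**
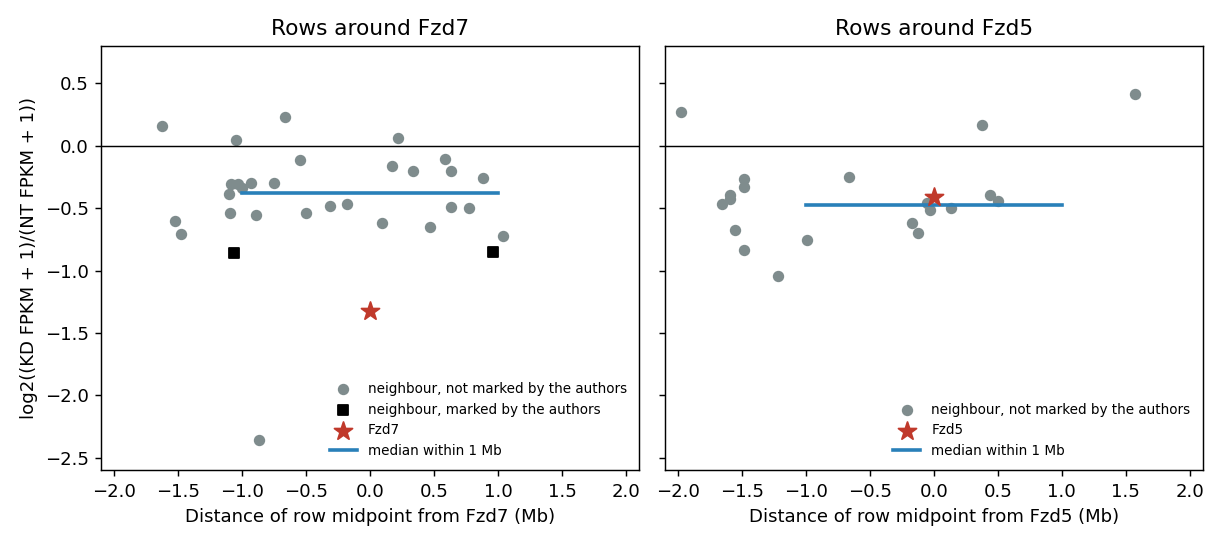
Log2 fold, KD over NT, of rows with at least 1 FPKM in either condition within 2 Mb of Fzd7 (left) and Fzd5 (right), against distance of the row midpoint. Squares are neighbours marked by the authors, stars are the Frizzled genes, and the blue line is the median within 1 Mb, at -0.38 around Fzd7 and -0.48 around Fzd5. Fzd7 lies below the named neighbours, whereas Fzd5 lies among its own.

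No other Frizzled gene stood in surroundings as low as these. The median of neighbours within 1 Mb was -0.23 around Fzd10 (9 rows), -0.13 around Fzd3 (17 rows), 0.069 around Fzd6 (12 rows) and 0.14 around Fzd4 (6 rows). Around Fzd2 (40 rows), Fzd9 (41 rows), Fzd1 (10 rows) and Fzd8 (5 rows) it was between -0.026 and 0.0042. On this log2 scale Fzd10 was above all 9 of its neighbours, at 0.37. Fzd1 was likewise above all 10 of its own, at 0.25.

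The low surroundings of Fzd7 and Fzd5 belonged to a longer stretch of chromosome 1. In 5 adjacent bins of 5 Mb, from 55 to 80 Mb, the medians of the named genes with at least 1 FPKM ran from -0.50 to -0.30. One of the bins, from 65 to 70 Mb, held only 8 genes. With both Frizzled genes left out, the stretch held 121 genes with a median of -0.40 and quartiles of -0.65 and -0.12, and 78.5% of them were below 0. The other 564 genes of chromosome 1 had a median of 0.061, and 42.6% of them were below 0. They were not even along the chromosome. The bin from 135 to 140 Mb had a median of -0.28, with 30 of 40 genes below 0. The bin from 155 to 160 Mb had a median of 0.35, with 2 of 24 genes below 0. The stretch was chosen after its values were seen, and the 2 receptor genes lie inside it by position only.

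Bins this low were uncommon elsewhere. Among 234 bins of at least 20 genes on all chromosomes, 9 had a median below -0.25, of which 5 were on chromosome 1, 4 of them in the stretch. The other 4 were on chromosome 10, which held the lowest bin of all, at -0.55. In the stretch the authors tested all 121 genes and marked 3 as lower, Abi2, the kinase gene Clk1 and the ribosomal protein gene Rpl37a. They marked 2 as higher, the ephrin receptor gene Epha4 and the protease inhibitor gene Serpine2. Of all tested rows, 0.187% were marked as lower and 0.963% as higher. As the stretch was chosen on its values, nothing is read from these counts. Of the 121 genes 0 had a lower log2 fold than Fzd7 at a pseudocount of 1, and 59 had a lower one than Fzd5. By the KD to NT ratio without a pseudocount, 2 genes lay below Fzd7 and 62 below Fzd5. The 2 were Inha, at 0.763 FPKM in KD clones and 2.60 FPKM in NT cells, and Gpr1, at 0.799 FPKM in KD clones and 2.21 FPKM in NT cells, neither marked. The copy number of the stretch in the clones was not tested.

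**Figure D4:**
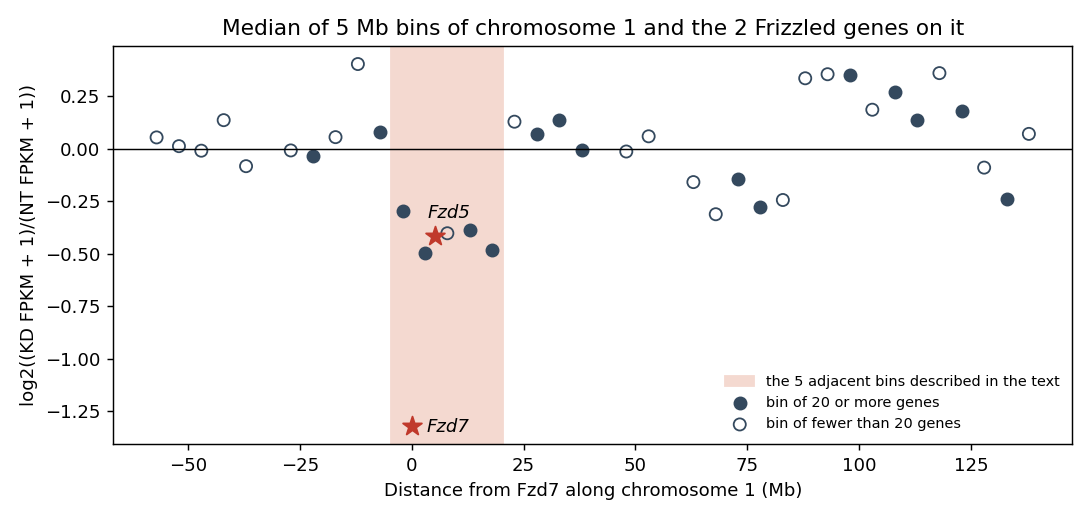
Median log2 fold, KD over NT, of named genes in 5 Mb bins of chromosome 1, placed by distance from Fzd7, with open circles for bins of fewer than 20 genes and stars for Fzd7 and Fzd5. In the shaded stretch the bin medians lie between -0.50 and -0.30, Fzd5 is at -0.41 near them, and Fzd7 is at -1.32, well below.

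The start regions of the most abundant members are shown because Fzd7 and Fzd5 were the members with the largest differences in FPKM and Fzd10 was next in level. These are the 250 bases before the RefSeq start (build GRCm38.p6, whose coordinates differ from those of the table), 5′ to 3′ along the gene's strand. Capitals mark, on either strand, the GC box GGGCGG. They also mark the promoter element named CCAAT box after its letters. The TATA letters TATAAA were marked where present. Fzd7 is at chr1:59481897-59482146, plus strand, Fzd5 at chr1:64737751-64738000, minus strand, and Fzd10 at chr5:128600856-128601105, plus strand.
Fzd7: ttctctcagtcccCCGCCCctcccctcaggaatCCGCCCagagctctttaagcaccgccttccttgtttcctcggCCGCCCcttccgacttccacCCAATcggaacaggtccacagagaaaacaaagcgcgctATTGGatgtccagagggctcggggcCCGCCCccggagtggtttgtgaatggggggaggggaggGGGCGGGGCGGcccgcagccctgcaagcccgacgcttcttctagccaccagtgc
Fzd5: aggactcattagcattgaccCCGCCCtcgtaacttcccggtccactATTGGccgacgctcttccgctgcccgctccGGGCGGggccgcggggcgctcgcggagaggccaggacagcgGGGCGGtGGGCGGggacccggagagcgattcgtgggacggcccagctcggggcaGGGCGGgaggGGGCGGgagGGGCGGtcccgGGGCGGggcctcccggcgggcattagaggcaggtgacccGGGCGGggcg
Fzd10: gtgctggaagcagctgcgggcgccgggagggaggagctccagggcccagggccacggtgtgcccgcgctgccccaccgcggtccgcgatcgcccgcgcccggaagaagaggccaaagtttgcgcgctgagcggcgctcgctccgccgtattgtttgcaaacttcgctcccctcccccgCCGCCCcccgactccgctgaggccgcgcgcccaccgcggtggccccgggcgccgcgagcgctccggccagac
Start regions of 6 of the 10 members were read here. Fzd7 held 6 GC boxes, the last pair overlapping, and Fzd5 held 9, where 32.9% of 27025 start regions of that length hold at least 1. Fzd10 held 1 GC box. CCAAT boxes numbered 2 in Fzd7, 1 in Fzd5 and 0 in Fzd10, beside 34.5% of all start regions with at least 1. None of these 3 held TATAAA, which 13.0% of start regions hold. The TCF/LEF letters CTTTGAT and the octamer ATGCAAAT, searched on both strands, were in none of the 6, and 3.23% and 1.61% of all start regions hold them. GC content was 65.2% in Fzd7, 76.4% in Fzd5 and 76.4% in Fzd10, with a median of 52.0% over all. A match of letters describes the sequence only.

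Other genes were set beside the receptors, in 11 lists of 109 genes, of which 107 had a row and 71 were tested by the authors. The lists hold genes of Wnt reception and signalling, beta-catenin targets and other genes with a cysteine-rich domain, some of them outside the Wnt pathway. Of the 71 tested genes 0 were marked, where 1.15% of all tested rows were marked in either direction, so the count says nothing particular about these lists. At an unadjusted Cuffdiff p under 0.05, 6 were higher and 3 were lower, and 8.88% of all tested rows had such a p. The median log2 fold of the 64 genes with at least 1 FPKM was -0.021. Lists were chosen with earlier results of these data known.

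Wnt ligands were low. Of 19 genes 4 reached 1 FPKM in either condition, 6 were tested and none was marked. Wnt7b was at 1.87 FPKM in KD clones and 0.504 FPKM in NT cells, with a log2 fold of 0.93, and the authors' deposited table lists a q of 0.191. Wnt11 was at 1.89 FPKM in KD clones and 1.59 FPKM in NT cells. Wnt6 and Wnt10a, which lie in the low stretch of chromosome 1, were at 1.58 and 1.06 FPKM in KD clones, and at 1.44 and 0.786 FPKM in NT cells. Of the 19 ligands 18 had a higher KD value, most of them far below 1 FPKM, and Wnt1 was listed at 0 in both conditions. How many of all rows at such low levels were higher in the KD was not counted, so nothing is read from the 18.

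Both genes of the machinery that releases ligands were tested, and neither was marked. Wls, the carrier that takes Wnt to the cell surface, was at 9.45 FPKM in KD clones and 3.14 FPKM in NT cells. Its log2 fold was 1.34, and the authors' deposited table lists a q of 0.0524, just outside their threshold. Porcn, the enzyme that attaches the lipid, was at 23.2 FPKM in KD clones and 21.8 FPKM in NT cells.

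Lrp6 was at 13.9 FPKM in KD clones and 11.3 FPKM in NT cells, and Lrp5 at 9.64 FPKM in KD clones and 12.8 FPKM in NT cells. Lrp6, with a log2 fold of 0.28, lies on chromosome 6. The 566 named genes of that chromosome with at least 1 FPKM had a median of 0.26, the highest of any chromosome. Lrp5, with a log2 fold of -0.37, lies on chromosome 19, where the median was 0.0020. Ptk7, the most abundant of the list, was at 29.4 FPKM in KD clones and 33.1 FPKM in NT cells, and Ryk at 16.02 FPKM in KD clones and 16.4 FPKM in NT cells. Ror2 was at 3.24 FPKM in KD clones and 3.71 FPKM in NT cells. Ror1 was at 0.205 FPKM in KD clones and 0.109 FPKM in NT cells and was not tested. None of the 5 tested co-receptors was marked, and their median log2 fold was -0.15.

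Partners that act on particular Frizzled proteins were also not marked. For Fzd4, the tetraspanin Tspan12 was at 1.11 FPKM in KD clones and 0.505 FPKM in NT cells, and the adhesion receptor Adgra2, named Gpr124 in the table, was at 4.52 FPKM in KD clones and 3.10 FPKM in NT cells. Reck, its membrane partner, was at 3.83 FPKM in KD clones and 4.10 FPKM in NT cells, and the ligand gene Ndp was listed at 0 in both. Znrf3, a ubiquitin ligase that removes Frizzled from the surface, was at 3.20 FPKM in KD clones and 2.55 FPKM in NT cells. Its R-spondin-bound brake Lgr4 was at 13.2 FPKM in KD clones and 13.7 FPKM in NT cells. Rspo3 was at 0.882 FPKM in KD clones and 0.159 FPKM in NT cells, and Lgr6 at 0.951 FPKM in KD clones and 0.534 FPKM in NT cells.

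In the list named receptor maturation, none of 4 tested genes was marked. Mesdc2, the chaperone of Lrp5 and Lrp6, was at 25.4 FPKM in KD clones and 23.5 FPKM in NT cells, and its genomic neighbour Mesdc1 at 6.63 FPKM in KD clones and 5.31 FPKM in NT cells. Shisa2, a retention factor first described in frogs, was at 8.54 FPKM in KD clones and 10.2 FPKM in NT cells. Tmem59, which promotes Frizzled clustering, was at 93.3 FPKM in KD clones and 93.1 FPKM in NT cells. The median log2 fold of the 4 listed genes with at least 1 FPKM, Mesdc1 included, was 0.057.

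Secreted antagonists went both ways. Dkk1, which blocks Lrp6, was at 2.52 FPKM in KD clones and 0.150 FPKM in NT cells, a log2 fold of 1.62 and the authors' deposited table lists a q of 0.171. Sfrp1, which carries a Frizzled-type cysteine-rich domain and binds Wnt, was the most abundant antagonist at 27.4 FPKM in KD clones and 41.0 FPKM in NT cells. Its log2 fold was -0.57 and its q in the authors' deposited table was 0.306. Sfrp4 was at 3.18 FPKM in KD clones and 5.91 FPKM in NT cells, and Sfrp2 at 1.33 FPKM in KD clones and 0.443 FPKM in NT cells. Notum, an enzyme that strips the lipid from Wnt, was at 6.20 FPKM in KD clones and 8.06 FPKM in NT cells. Of 7 tested antagonists none was marked.

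Among other genes with a cysteine-rich domain like that of Frizzled, Smo, the Hedgehog transducer of the same receptor class, was at 11.5 FPKM in KD clones and 11.1 FPKM in NT cells. Col18a1, a basement membrane collagen, was at 71.3 FPKM in KD clones and 91.3 FPKM in NT cells, a log2 fold of -0.35. It lies in the chromosome 10 bin from 75 to 80 Mb. The median log2 fold of that bin was -0.55, with 89 of 94 genes below 0. None of the 8 tested genes of that list was marked. The list shares Sfrp1, Sfrp2, Frzb, Sfrp4 and Sfrp5 with the antagonists and Ror1 and Ror2 with the co-receptors.

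Downstream of the receptor, the adaptor Dvl2 was at 36.5 FPKM in KD clones and 45.6 FPKM in NT cells. Ctnnb1, beta-catenin, was at 252 FPKM in KD clones and 303 FPKM in NT cells, and Csnk1a1, a kinase of the destruction complex, at 197 FPKM in KD clones and 199.96 FPKM in NT cells. Csnk1g2, a membrane-bound kinase of Lrp6, had a log2 fold of -0.61, at 30.5 FPKM in KD clones and 47.1 FPKM in NT cells. It lies on chromosome 10, in the bin from 80 to 85 Mb. The median log2 fold of that bin was -0.51, with 79 of 82 genes below 0. Whether Csnk1g2 differs from its surroundings was not tested. Dact3, a Dishevelled antagonist, was at 4.18 FPKM in KD clones and 6.28 FPKM in NT cells. Of 17 tested transducers none was marked, and their median at 1 FPKM or more was -0.021.

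Planar polarity genes, which act with Fzd3 and Fzd6, had a median log2 fold of -0.15, with 11 of 14 below 0 and none of 14 tested marked. Celsr1, a cadherin of that pathway, was at 3.05 FPKM in KD clones and 5.66 FPKM in NT cells, with a log2 fold of -0.72, and the authors' deposited table lists a q of 0.216. Celsr3 was at 1.69 FPKM in KD clones and 2.44 FPKM in NT cells, Vangl1 at 18.01 FPKM in KD clones and 21.1 FPKM in NT cells, and Intu at 3.32 FPKM in KD clones and 4.36 FPKM in NT cells. Prickle1 was at 1.10 FPKM in KD clones and 0.484 FPKM in NT cells, and Daam1 at 10.6 FPKM in KD clones and 9.67 FPKM in NT cells. Prickle4 shares its row with Tomm6, so its own level is uncertain.

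Genes known as beta-catenin targets were not marked in any of 9 tested cases, and their median was 0.24. Axin2, Dkk1, Lgr5, Nkd1, Notum, Rnf43 and Znrf3 stand in this list and in another one. Axin2, the feedback inhibitor used most often as a reporter of the pathway, was at 2.28 FPKM in KD clones and 1.04 FPKM in NT cells, and the authors' deposited table lists a q of 0.656. Ccnd1, cyclin D1, was at 36.7 FPKM in KD clones and 20.9 FPKM in NT cells, and the authors' deposited table lists a q of 0.126. Cdx1, a homeobox gene, was at 3.54 FPKM in KD clones and 1.46 FPKM in NT cells, though its row shares a locus with Pdgfrb. The factor gene Tcf7 was at 8.50 FPKM in KD clones and 9.03 FPKM in NT cells. Sp5, Lgr5 and Cdx2 were listed at 0 in NT cells and at most at 0.189 FPKM in the KD.

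**Figure D5:**
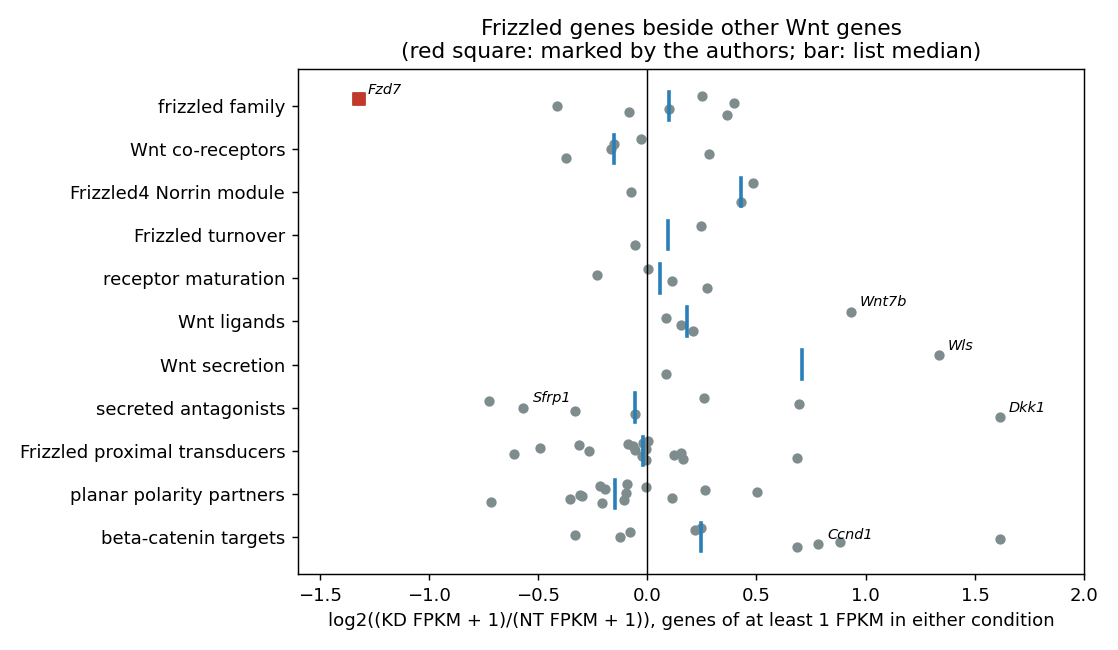
Log2 fold, KD over NT, of Frizzled genes and of other Wnt genes with at least 1 FPKM in either condition, 1 row per list, with the list median as a bar and the gene marked by the authors as a red square. Fzd7 at -1.32 is the only marked gene shown, and Dkk1 at 1.62 and Wls at 1.34 lie farthest to the right.

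The genes whose levels in both conditions were nearest to those of Fzd7 were found by Euclidean distance over log2(FPKM + 1) in the 2 conditions. They were Slc16a3, Tpgs1, Arl14epl, Bhlhe40 and Pecr, at distances of 0.16 to 0.25. Slc16a3, a lactate exporter, was at 15.6 FPKM in KD clones and 34.5 FPKM in NT cells. Tpgs1 was at 15.99 FPKM in KD clones and 33.99 FPKM in NT cells, and Arl14epl at 13.8 FPKM in KD clones and 32.3 FPKM in NT cells. The authors marked Slc16a3 and Arl14epl as lower. Bhlhe40, a transcriptional repressor, was at 16.9 FPKM in KD clones and 36.2 FPKM in NT cells. Pecr, a peroxisomal enzyme gene in the low stretch of chromosome 1, was at 14.4 FPKM in KD clones and 31.4 FPKM in NT cells.

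Markers of ES cells, primitive endoderm and feeder fibroblasts were read beside the receptors. In bulk RNA their levels do not show which cells were present. Of the 8 ES cell markers 5 were higher and 3 were lower in the KD, and none was marked. They summed to 6106 FPKM in KD clones and 5850 FPKM in NT cells. The largest part of both sums was Dppa5a, at 2721 FPKM in KD clones and 2552 FPKM in NT cells, in a row shared with Ooep. All 15 primitive endoderm markers were higher in the KD, with sums of 722 FPKM in KD clones and 127 FPKM in NT cells. Of 14 tested, 12 were marked as higher. Afp, of that list, was listed at 0 in NT cells. Of 15 feeder fibroblast markers 13 were higher in the KD, with sums of 32.99 FPKM in KD clones and 13.7 FPKM in NT cells. Of 10 tested, 2 were marked as higher, and Lum was listed at 0 in both. Over all tested rows, 0.963% were marked as higher and 1.15% in either direction. The marker lists were chosen with earlier results of these data known. Pdgfra stands in both the endoderm and the fibroblast list. Any part of these cell types in the levels of the Frizzled genes, or of Dkk1 and Wls, was not tested.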

How the data were processed

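RNA was measured in 4 libraries of TBV2 cells, 1 NT control and 3 T-UCstem1 KD clones. TopHat, Cufflinks and Cuffdiff were run per the submitters' processing notes, which also name mm9. Versions, options and annotation were not given in the sources used here. Per the file headers, the authors deposited 1 FPKM per row under the name treated and 1 under control. Treated was read as the pooled KD clones, the only condition beside NT. The deposited p-value and q-value are Cuffdiff's, per the file headers. Benjamini-Hochberg adjustment over 15477 tested rows gave the deposited q to within 5.2e-07, and marked rows had a q up to 0.0478. With 1 control library these p-values hold no measured spread between control cultures.

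Members, lists and tests were chosen with earlier results of these data known. Rows were matched by symbol, taking the row with the highest mean FPKM. Log2 folds used a pseudocount of 1 FPKM, which understates low genes. Neighbours were rows with midpoints within 1 Mb and at least 1 FPKM in either condition. Table coordinates are given 1-based. No test was run on the FPKM. Named genes were all Frizzled members, the named neighbours of Fzd7 (some are not reported here), per Wnt list the marked members, the 4 largest folds at 1 FPKM or more and the 3 highest levels, and the 5 genes nearest to Fzd7. Other genes (neighbours of Fzd5, genes of the stretch, Ror1, Wnt1, Ndp, Rspo3, Sp5, Lgr5, Cdx2 and the cell type markers Afp, Lum, Pdgfra and Dppa5a) were chosen after their values were seen. Coding sequences came from GENCODE M21 and start regions from RefSeq (Python 3.11.15, Biopython 1.88). Fold, adjustment and row selection were tested on simulated data.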

Additional observations from a re-analysis of the deposited data

How the results depend on the processing

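The fall of Fzd7 kept its direction under each alternative run, with log2 folds from -1.37 at a pseudocount of 0.1 to -0.94 after subtraction of the median of its neighbours within 1 Mb, a setting chosen after seeing the data. The distance of Fzd7 below those neighbours ran from -1.02 to -0.86 over other windows, filters and pseudocounts. Fzd5 changed sign to 0.064 with its neighbours subtracted, and Fzd8 to -0.0093 with the median of its chromosome subtracted. The family median was 0.27 at a pseudocount of 0.1, since most members are near 1 FPKM, against 0.15 as reported. Without Fzd5 in the sum, the Fzd7 share was 45.4% in the KD and 73.4% in NT cells. The counts of marked members, 1 lower and 0 higher, were the same with Benjamini-Hochberg adjustment over rows of at least 1 FPKM or over rows with exactly 1 symbol. The 1 is Fzd7, on whose q the family was chosen, so nothing is read from this either. A median was taken as moved past 0.1 on the log2 scale and a share past 5 percentage points, since no replicate spread exists. Leaving out a clone was not run, because the clones are pooled in the deposited values. No paired analysis was possible because the columns carry no replicate and the control is 1 library. Depth per library is unknown, so levels under 1 FPKM, as for Fzd1, Fzd4 and Fzd8, cannot be given a counting error.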
